A study of Mus musculus with 8 samples.

Results

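Kinesins and dynein were examined in bulk RNA sequencing of the mouse auditory nerve. Members were taken by gene symbol. They were every row of the deposited table whose symbol starts with Kif or Klc and a digit, with Dync or with Dynl. This rule and the lists below were set with earlier results of these data known. The rule found 48 of the 15035 genes in the table. They were split by known role into 32 axonal transport motors and their subunits, 9 ciliary motors, 3 mitotic kinesins and 4 other kinesins. Nerves were microdissected at postnatal day 21 from wild-type mice (libraries 1 to 4) and from mice labelled as Mef2c heterozygotes (libraries 5 to 8). Mef2c encodes a MADS-box transcription factor. Each library came from both cochleas of 1 mouse. The labels used here give no strain, sex, litter or type of Mef2c allele, and nothing says which cells carry the change.

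Kinesins and cytoplasmic dynein are motor proteins that walk along microtubules and hydrolyse ATP. In an axon most microtubules point outward, so kinesins carry vesicles, mitochondria and cytoskeletal cargo towards the terminal, and cytoplasmic dynein carries endosomes and survival signals back to the cell body. Spiral ganglion neurons, whose axons form the auditory nerve, use both routes over long distances. Mitotic kinesins build and move the spindle in dividing cells, and ciliary motors carry cargo along the shaft of a cilium.

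The table holds normalized counts, that is, reads per gene divided by a size factor for each library. Depth was estimated at 13363365 to 21507209 reads per library, and wild-type library 1 was the shallowest. Mef2c had 438.6, 498.4, 508.7 and 402.2 normalized counts in wild-type libraries 1 to 4 and 583.3, 704.9, 735.1 and 649.8 in libraries 5 to 8. It was thus higher in every library labelled heterozygote (two-sided exact permutation p = 0.0286, the smallest that 4 against 4 can give). The limma-trend adjusted p was 0.186 over all genes. A lost copy would give the opposite direction, but the label does not say that a copy is lost or whether the changed allele still gives reads. Every direction below is therefore between libraries as labelled, and "libraries 5 to 8" are those labelled heterozygote. Neuronal, myelin and astrocyte markers were present in all 8 libraries. The summed oligodendrocyte markers ran from 216894 to 286958 normalized counts in wild type and from 115542 to 150711 in libraries 5 to 8, with no overlap. Fewer cells of a type and less RNA per cell cannot be told apart in bulk tissue.

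Transport motors were abundant and mitotic kinesins were low, with Kif15 close to the detection floor. Levels between genes were compared as normalized counts per kilobase of the longest annotated transcript, averaged over the 8 libraries. The median axonal transport motor had 714.97 per kilobase, against 139.1 for all genes tested, and 26 of the 32 lay above that all-gene median. The median ciliary motor had 25.5 per kilobase, the median of the other kinesins was 24.2, and that of the 3 mitotic kinesins 3.30. None of the 3 mitotic kinesins exceeded the all-gene median. Within a library the median axonal motor stood 121.1 to 521.8 times above the median mitotic kinesin, with a mean of 300.1 ± 170.6 (SD, n = 8). The mitotic median in it rests on low counts in each library.

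**Figure D1:**
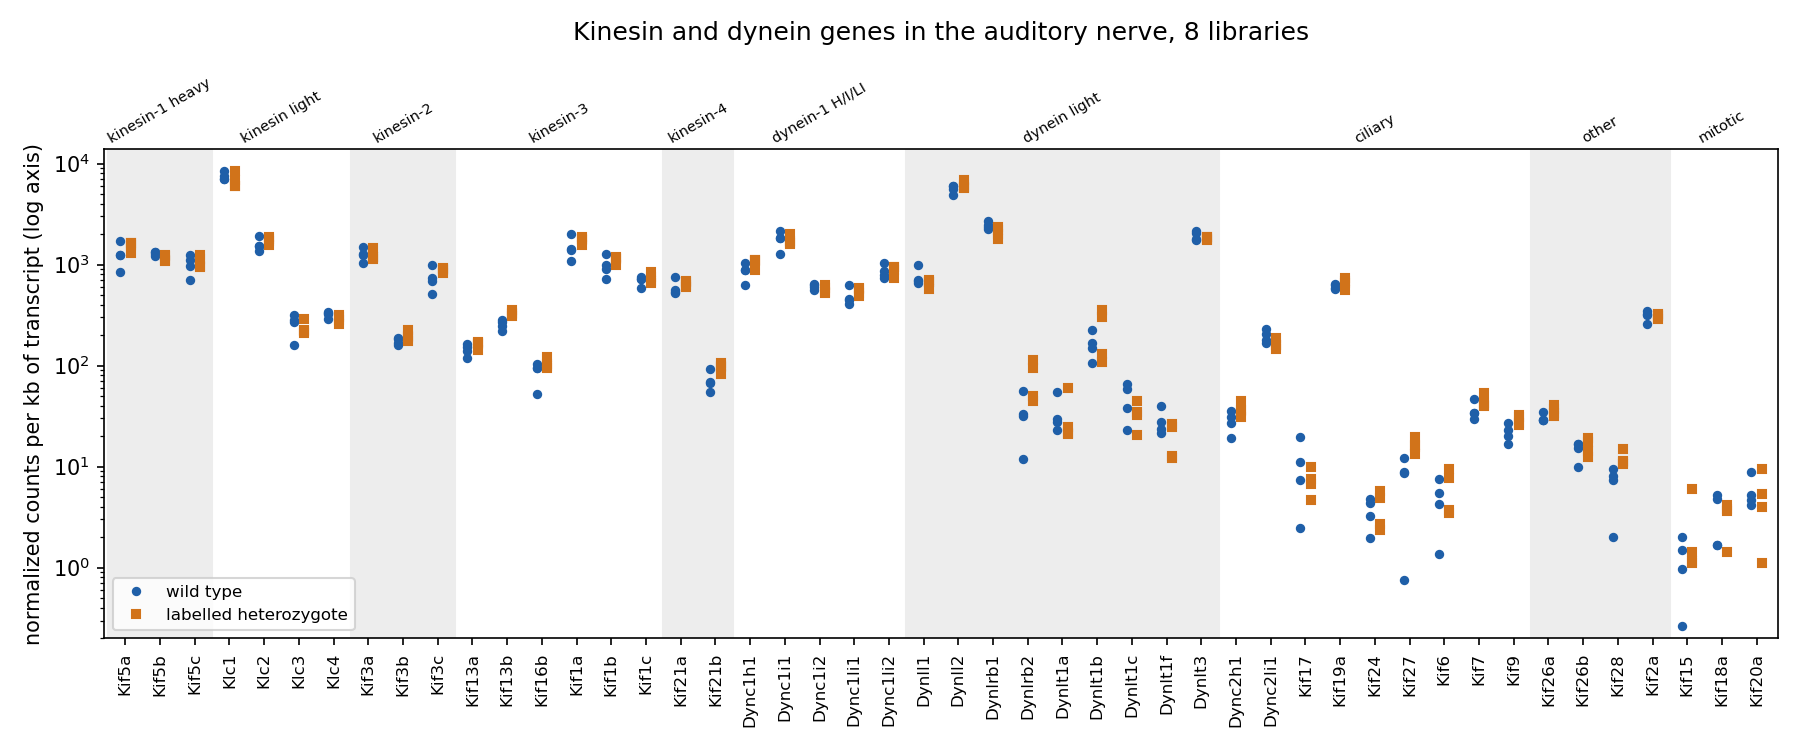
Levels of the 48 genes as normalized counts per kilobase of transcript on a log axis, with 1 point for each library, for wild type (circles) and for the libraries labelled heterozygote (squares), ordered by role. Klc1 and Dynll2 stand highest and the 3 mitotic kinesins are among the lowest, with Kif15 at 1.81 per kilobase.

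The highest level belonged to Klc1, a kinesin light chain, which ties cargo to the kinesin-1 motor. It had 7496 ± 634 per kilobase in wild type against 6843 ± 1116 in libraries 5 to 8 (SD, n = 4 each). Next came Dynll2, a dynein light chain that also acts as a hub for many other partners, at 5616 ± 563 and 6121 ± 522. Dynlrb1, the roadblock light chain of dynein, had 2443 ± 193 in wild type, and Dynlt3, a Tctex-type light chain, 1946 ± 191. Dync1i1, an intermediate chain that links dynein to dynactin, had 1776 ± 358. Klc2 had 1584 ± 229 and Kif1a, a kinesin-3 that carries synaptic vesicle precursors, 1476 ± 382. Klc1 and Dynll2 lay above all others in every library, whereas from Dynlt3 down to Kif1a each gene differed from the next by less than their spread. The order depends on which transcript is taken for the length. With the median annotated transcript in place of the longest, Dync1h1 stood first at 22897 per kilobase, Kif1a had 20322, Klc1 18547 and Dynll2 6277, and the axonal median was still 256.4 ± 78.8 times the mitotic one (SD, n = 8 libraries).

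The kinesin-1 heavy chains, which hold the motor domain, comprise the neuronal Kif5a and Kif5c and the widely expressed Kif5b. Per kilobase of the longest transcript their wild-type levels were 1266 ± 358 for Kif5a, 1282 ± 57.9 for Kif5b and 1007 ± 231 for Kif5c (SD, n = 4), with Kif5c below Kif5b in each of these libraries. This order too depends on the transcript taken. With the median annotated transcript, averaged over all libraries, Kif5c had 11814 per kilobase, Kif5b 4114 and Kif5a 2207. Of the kinesin-2 subunits, which pair as Kif3a with Kif3b or Kif3c, Kif3a had 1261 ± 186 per kilobase, Kif3c, the neuronal partner, 738 ± 198, and Kif3b 175 ± 14.1. The dynein heavy chain Dync1h1, the only motor subunit of cytoplasmic dynein-1, had 860.1 ± 174. Dync1li2 exceeded Dync1li1, both light intermediate chains, at 862 ± 134 against 484 ± 97.9. Among the lower transport motors were Kif21b (70.6 ± 15.5), Kif16b (86.7 ± 23.4) and Dynlrb2 (33.4 ± 18.2). The 4 Dynlt1 copies are nearly identical genes between which reads can be split, so their single values are uncertain.

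Promoter windows from RefSeq (GRCm38.p6, 250 bases before to 50 after a transcript start) were found for 35 of the 48 genes. A GC box (GGGCGG, either strand) was in 28 of the 35, or 80%, against 38.2% of all 27025 genes with a window, and in 20 of 23 axonal transport motors. The cAMP response element TGACGTCA was in 4 of 35 (11.4%) against 2.03% of all genes. They were Kif5c, Klc1, the ciliary Kif17 and the mitotic Kif18a. A CCAAT box was in 13 of 35 (37.1%) against 41.1%. The cell cycle element TTTGAA, known from promoters of mitotic genes, was in 4 of 35 (11.4%) against 20.2%. These were the mitotic Kif15, the axonal Kif1a, the ciliary Kif27, with 3 matches, and Kif26b of the other kinesins. The mitotic Kif18a had 0. A match to the MEF2 consensus was in 1 of 35 (2.86%) against 3.70% of all genes, in Kif27. No motif contains another, and both strands were read. The 27025 genes include genes outside the 15035 measured in this tissue, and no share among the measured genes was taken. An excess over the 27025 genes therefore cannot be called particular to the motors. A match is a description of the letters only. Dync1h1 is shown for its GC boxes, Kif5c, Klc1 and Kif18a because a transport heavy chain, a light chain and a mitotic kinesin share the same element, Kif15 for its 2 TTTGAA matches, and Kif27 for the match to the consensus of the targeted factor. The windows are chr12:110601145-110601444 (+ strand), chr2:49619036-49619335 (+ strand), chr12:111758618-111758917 (+ strand), chr2:109280488-109280787 (+ strand), chr9:122950831-122951130 (+ strand) and chr13:58354898-58355197 (- strand), written 5′ to 3′ on the gene's strand, with the letters of the element each is shown for in capitals. The RefSeq start of Kif27 lies inside the gene model of GENCODE, and its window holds only 2 CG pairs, against 14 to 37 in the other 5.
Dync1h1: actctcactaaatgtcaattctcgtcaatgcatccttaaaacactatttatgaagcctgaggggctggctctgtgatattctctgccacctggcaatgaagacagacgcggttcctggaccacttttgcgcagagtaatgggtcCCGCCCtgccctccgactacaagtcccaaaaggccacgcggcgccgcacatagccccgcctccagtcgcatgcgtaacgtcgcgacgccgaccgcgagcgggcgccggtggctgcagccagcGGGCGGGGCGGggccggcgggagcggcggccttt
Kif5c: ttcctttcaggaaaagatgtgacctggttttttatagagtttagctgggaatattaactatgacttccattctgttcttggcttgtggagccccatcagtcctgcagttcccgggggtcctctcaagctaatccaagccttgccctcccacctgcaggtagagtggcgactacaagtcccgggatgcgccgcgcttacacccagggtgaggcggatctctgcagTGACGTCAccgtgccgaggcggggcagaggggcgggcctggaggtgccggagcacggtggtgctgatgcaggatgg
Klc1: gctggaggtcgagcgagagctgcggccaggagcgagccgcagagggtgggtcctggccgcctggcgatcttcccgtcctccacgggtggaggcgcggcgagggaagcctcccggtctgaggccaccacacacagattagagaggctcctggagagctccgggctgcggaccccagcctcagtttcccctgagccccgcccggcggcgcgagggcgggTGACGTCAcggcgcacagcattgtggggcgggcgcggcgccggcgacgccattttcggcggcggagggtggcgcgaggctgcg
Kif18a: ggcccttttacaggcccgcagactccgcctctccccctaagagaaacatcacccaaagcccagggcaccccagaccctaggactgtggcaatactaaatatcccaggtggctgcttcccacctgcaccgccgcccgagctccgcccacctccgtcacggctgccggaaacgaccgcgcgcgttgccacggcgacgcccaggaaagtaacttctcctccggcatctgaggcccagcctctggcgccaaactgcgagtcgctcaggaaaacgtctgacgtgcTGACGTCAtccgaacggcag
Kif15: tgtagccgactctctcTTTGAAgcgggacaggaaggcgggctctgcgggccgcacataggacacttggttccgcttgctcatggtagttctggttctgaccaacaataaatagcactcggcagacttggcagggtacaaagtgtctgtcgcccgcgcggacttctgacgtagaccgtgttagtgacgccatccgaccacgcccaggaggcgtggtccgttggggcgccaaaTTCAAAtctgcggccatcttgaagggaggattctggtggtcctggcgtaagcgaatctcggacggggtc
Kif27: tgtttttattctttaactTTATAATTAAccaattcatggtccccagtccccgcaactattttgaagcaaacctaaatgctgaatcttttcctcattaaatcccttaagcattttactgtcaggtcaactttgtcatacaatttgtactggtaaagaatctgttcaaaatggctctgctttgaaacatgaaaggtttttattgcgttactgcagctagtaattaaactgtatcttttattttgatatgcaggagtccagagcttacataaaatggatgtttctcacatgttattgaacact
The cAMP response element lies 26 bases before the start in Kif5c, 33 bases before it in Klc1 and 30 bases after it in Kif18a.

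The comparison of genotypes asked which motor transcripts differ between wild type and the libraries labelled heterozygote. Of the 48 genes, 47 reached 10 normalized counts in 4 or more libraries and were tested with limma-trend on log2(value + 1). 0 of the 47 passed a Benjamini-Hochberg adjusted p of 0.05 over all genes, where 0.0807% of all 14870 genes passed (0.00672% higher and 0.074% lower). At an unadjusted limma-trend p under 0.05 there were 6 (12.8%), against 14.1% of all genes tested, so the share of members was near that background. In libraries 5 to 8, 5 of them were higher (6.72% of all genes were) and 1 was lower (7.34%). That count was 15 without wild-type library 3, where 23% of all genes had such a p, and 3 without library 8, where 7.9% did. The genotypes did not overlap in 3 of the 47, Kif13b, Kif27 and Kif28, all higher, where 7.26% of all genes did not overlap (3.4% higher and 3.86% lower). Kif28 was named here after its values were seen. The authors' deposited table gave an FDR under 0.05 for 1.61% of genes and for none of the 48, with the smallest, 0.0534, for Kif13b. It gave an unadjusted p under 0.05 for 4 of the 48 (Kif13b, Kif21b, Dynlrb2 and Kif27), against 15.3% of its genes.

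**Figure D2:**
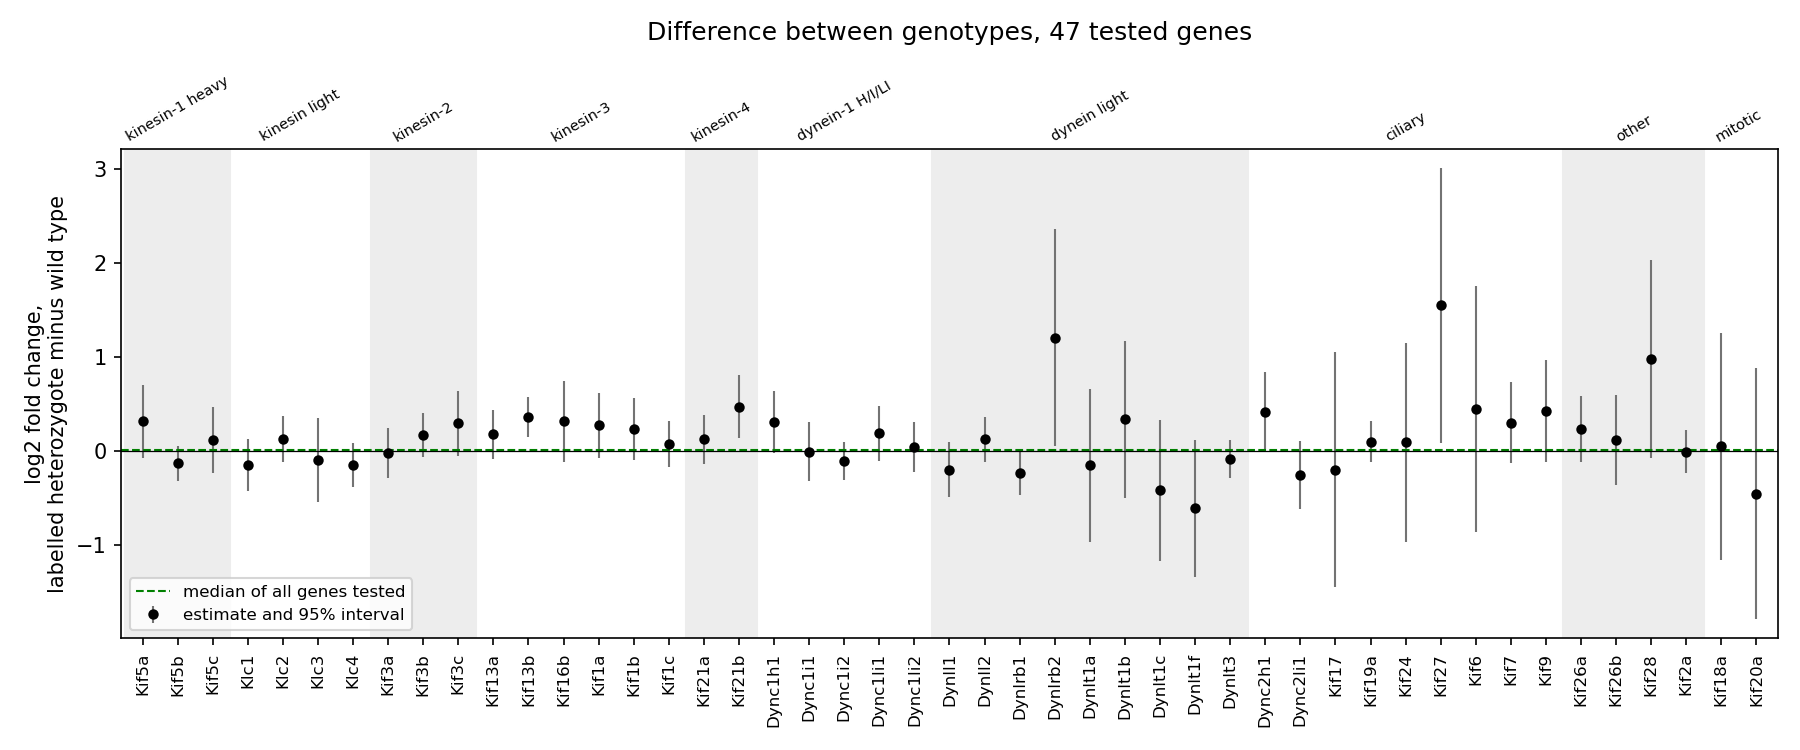
Log2 fold change (libraries labelled heterozygote minus wild type) of the 47 tested genes with 95% intervals from limma-trend, ordered by role; the dashed line marks the median of all genes tested, 0.015. Intervals of Klc1 and Kif5b span under 0.6, those of Kif5a, Kif1a and Dync1h1 over 0.6, and those of Kif27, Kif18a and Kif20a over 2. Those of 6 genes exclude 0.

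The smallest p-values belonged to 1 kinesin-3 and 1 kinesin-4 gene. Kif13b, a kinesin-3 that binds the scaffold Dlg1 and lies at chr14:64647265-64809617, + strand (GRCm38, GENCODE M21), had 1965, 2525, 2403 and 2191 normalized counts in wild-type libraries 1 to 4 and 2722, 3135, 2875 and 2922 in libraries 5 to 8. Every library labelled heterozygote was above every wild-type library. The log2 fold change was 0.36 (SE 0.10), with an unadjusted limma-trend p of 0.00301 and an adjusted p of 0.222. Kif21b, a neuronal kinesin-4 that also slows microtubule growth (chr1:136131389-136177998, + strand), had 507, 638, 851 and 617 in wild-type libraries 1 to 4 and 907, 924, 767 and 989 in libraries 5 to 8. Wild-type library 3 lay within the range of the other genotype and the other 3 wild-type libraries below it. The log2 fold change was 0.48 (SE 0.15), with a limma-trend p of 0.00907 and an adjusted p of 0.266. Without wild-type library 3 the log2 fold change of Kif21b was 0.61 and its limma-trend adjusted p 0.0477 (221 of all genes passed there, against 12 with every library). A covariate built from the residuals (their first principal component) let Kif13b and Kif21b both pass, with limma-trend adjusted p of 0.0386 and 0.0456. With that covariate 576 of all genes passed. It comes from the residuals of the same genotype fit, so it lowers the residual spread by construction and leaves each log2 fold change unchanged. Passing with it is therefore no independent evidence. After the correction for transcript length, Kif13b had a log2 fold change of 0.13 (unadjusted limma-trend p 0.135) and Kif21b of 0.24 (p 0.0521), so neither kept an unadjusted p under 0.05. Over all alternatives the limma-trend adjusted p ran from 0.0386 to 0.59 for Kif13b and from 0.0456 to 0.616 for Kif21b.

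Kif1a (chr1:93015464-93101951, - strand) had 8886, 11734, 16411 and 11419 normalized counts in wild-type libraries 1 to 4 and 14840.1, 14420.1, 12878 and 15250.1 in libraries 5 to 8. Kif1b, a relative that moves mitochondria and synaptic vesicle precursors (chr4:149176319-149307693, - strand), had 7343, 10157, 12994 and 9363 and 11991, 11741, 10135 and 12102. In both genes wild-type library 1 was the lowest and wild-type library 3 the highest of all 8, so the range of wild type enclosed that of the other genotype. Log2 fold changes were 0.28 for Kif1a (95% interval -0.069 to 0.62) and 0.23 for Kif1b (-0.10 to 0.56), with limma-trend adjusted p of 0.435 and 0.49. Without wild-type library 1 they were 0.14 and 0.10, and without wild-type library 3 0.43 and 0.37. All 6 kinesin-3 genes had a positive log2 fold change, from 0.079 for Kif1c, which serves the Golgi and other routes, to 0.36 for Kif13b. Both kinesin-4 genes did too, with 0.13 for Kif21a, beside 52.3% of all genes tested. After the length correction 4 of the 6 kinesin-3 genes were positive, with a median of 0.033, and Kif1b and Kif1c had -0.027 and -0.09.

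Among the kinesin-1 heavy chains, Kif5a (chr10:127225696-127263348, - strand), whose human counterpart is mutated in hereditary axonal disease, had 5346, 7787, 10845 and 7889 normalized counts in wild-type libraries 1 to 4 and 10367, 9823, 8217 and 10266 in libraries 5 to 8. The wild-type range, from library 1 to library 3, enclosed the other 4 values. Kif5c (chr2:49619298-49774778, + strand) had 4863, 6602, 8572 and 7585 and 8581, 6678, 6465 and 7788, again lowest in wild-type library 1. Kif5b (chr18:6201002-6242174, - strand) had 7280.5, 7958, 7634 and 8050.3 and 7383, 6697, 6616 and 7591, with little spread within either genotype and overlapping ranges. The log2 fold change was 0.32 (95% interval -0.067 to 0.70) for Kif5a, 0.12 (-0.24 to 0.47) for Kif5c and -0.13 (-0.32 to 0.061) for Kif5b. Kif5a had 0.14 when wild-type library 1 was left out and 0.48 when wild-type library 3 was. Kif5c turned to -0.042 without wild-type library 1, and to -0.058 with the length correction. None passed with limma-trend (adjusted p 0.421, 0.754 and 0.503). After a correction for transcript length, Kif5b had a log2 fold change of -0.28 with an unadjusted limma-trend p of 0.00686, which did not pass after adjustment (adjusted p 0.272).

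**Figure D3:**
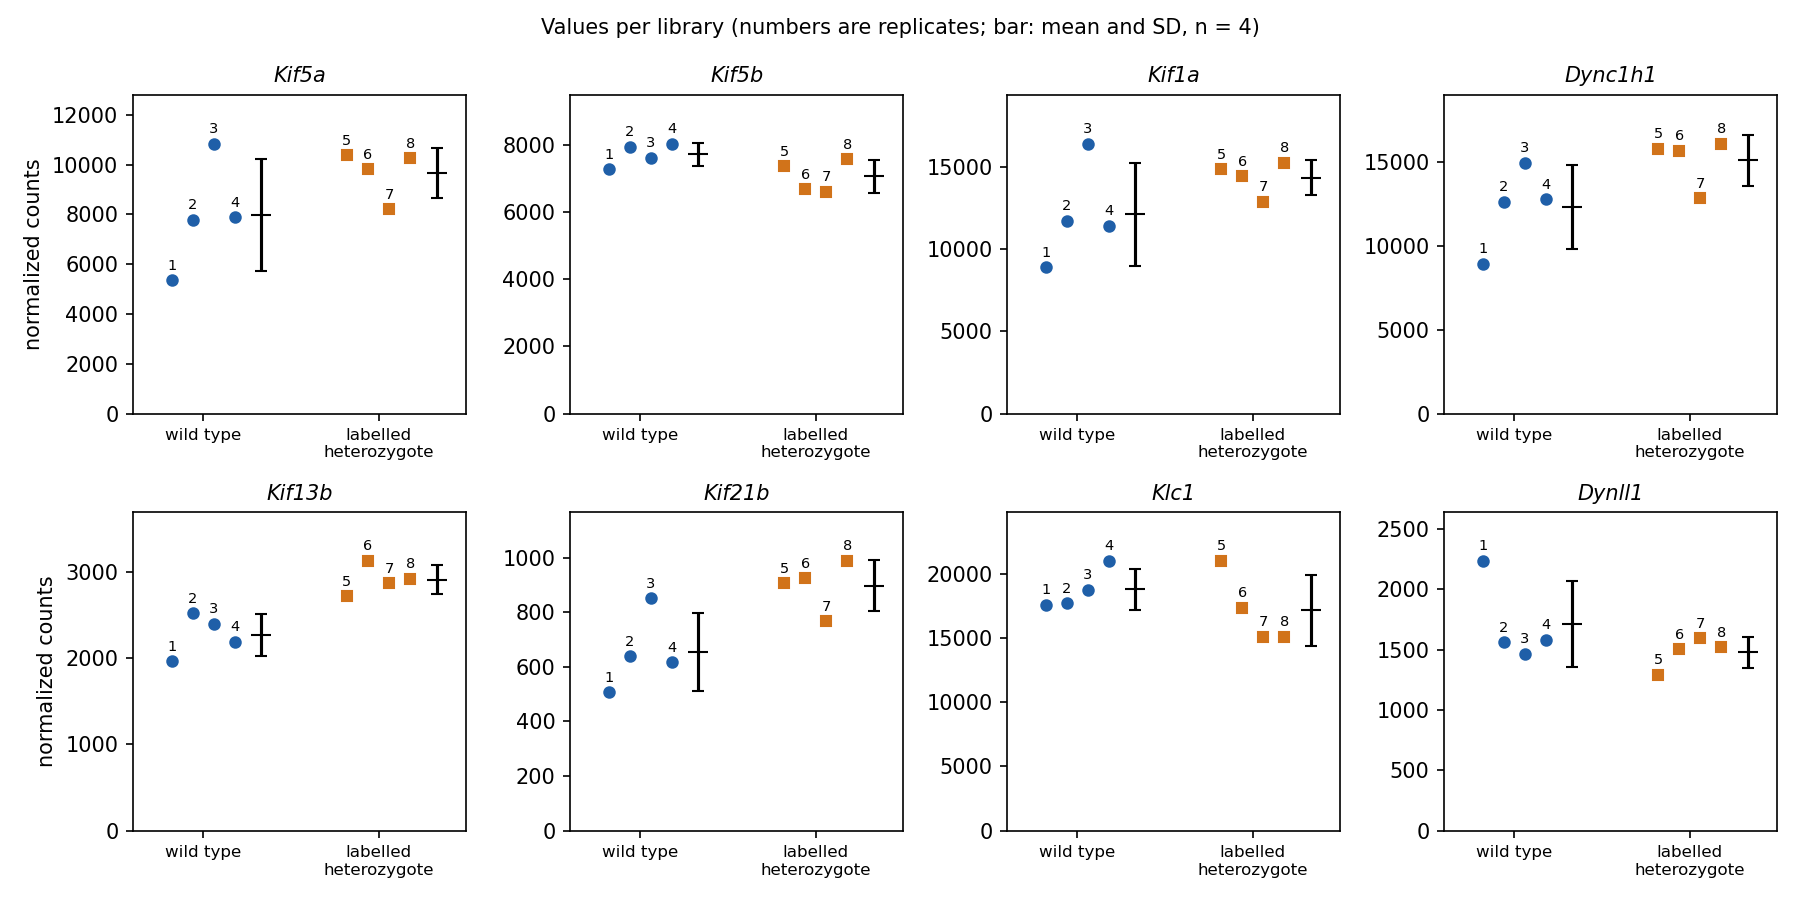
Normalized counts of 8 motor genes in each library, with replicate numbers beside the points and the mean and SD (n = 4) beside each genotype; all axes start at 0. Wild-type library 1 is low and wild-type library 3 high in Kif5a, Kif1a and Dync1h1, the genotypes separate in Kif13b, and wild-type library 1 stands alone in Dynll1.

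Of the 4 kinesin light chains, 1 had a positive and 3 a negative log2 fold change, all with overlapping ranges. Klc1 (chr12:111758849-111807844, + strand) had 17593, 17720.0, 18748 and 21023 normalized counts in wild-type libraries 1 to 4 and 21008, 17352, 15095 and 15087 in libraries 5 to 8. Libraries 7 and 8 were the lowest of all 8, while library 5 nearly equalled wild-type library 4, the highest. The log2 fold change was -0.14 (95% interval -0.42 to 0.13; limma-trend adjusted p 0.613). Klc3 and Klc4 had -0.091 and -0.15, and Klc2 0.13. In kinesin-2, Kif3a (chr11:53567379-53601967, + strand) had 3251, 3957, 4685 and 4049.9 and 4579, 3752, 3566 and 3766 normalized counts, with overlapping ranges and a log2 fold change of -0.02 (95% interval -0.28 to 0.24, limma-trend adjusted p 0.951). Kif3c had a log2 fold change of 0.30 and Kif3b of 0.17, with limma-trend adjusted p of 0.402 and 0.481.

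For the retrograde motor, Dync1h1 (chr12:110601452-110666945, + strand) had 8940.3, 12643, 14966 and 12791 normalized counts in wild-type libraries 1 to 4 and 15792, 15662, 12829 and 16098 in libraries 5 to 8. Wild-type library 1 was the lowest, and library 7 was lower than the other 3 libraries labelled heterozygote. The log2 fold change was 0.31 (95% interval -0.016 to 0.64), with a limma-trend p of 0.0608 and an adjusted p of 0.371. The intermediate chains Dync1i1 and Dync1i2 had log2 fold changes of -0.0078 and -0.10, and the light intermediate chains Dync1li1 and Dync1li2 of 0.19 and 0.046. Without wild-type library 1 the value of Dync1h1 was 0.16, and after the length correction it was -0.0059.

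Of the 9 dynein light chains, 3 had a positive and 6 a negative log2 fold change, where 52.3% of all genes were positive. The negative ones include 3 of the uncertain Dynlt1 copies, and the median was -0.15, or -0.018 after the length correction. Dynll1 (chr5:115297110-115300999, - strand), the closest relative of Dynll2, had 2239, 1559.8, 1468 and 1584 normalized counts in wild-type libraries 1 to 4 and 1294, 1502, 1596 and 1519 in libraries 5 to 8. Wild-type library 1 was far above the other 7, whose values overlapped between genotypes. Dynll2 (chr11:87979525-87987533, - strand) had 11982, 13775, 14910.1 and 14954 and 16982, 15140.5, 14368 and 14132, with wild-type library 1 the lowest. Log2 fold changes were -0.20 for Dynll1 (95% interval -0.49 to 0.10) and 0.13 for Dynll2 (-0.11 to 0.36), with limma-trend adjusted p of 0.509 and 0.598. Without wild-type library 1 the value of Dynll1 was -0.06, and it was 0.0023 without that library and library 5. Dynlrb1 (chr2:155236533-155250277, + strand) was the 1 member lower at an unadjusted p under 0.05. It had 2122, 1868, 1761 and 1951 and 1583, 1837, 1745 and 1399.8, with library 6 within the wild-type range and libraries 5, 7 and 8 below it. Its log2 fold change was -0.23 (SE 0.11), with a limma-trend p of 0.0475, an adjusted p of 0.352 and a length-corrected log2 fold change of 0.018.

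Over the 32 axonal transport motors, 19 had a positive and 13 a negative log2 fold change, or 59.4% positive against 52.3% of all genes tested. Their median was 0.12, beside 0.015 for all genes. Without wild-type library 1 it was 0.058, without library 5 0.08, and without both 0.012. The sign went with transcript length. Of the 21 tested members with a transcript of at least 5000 bases, 19 were higher in libraries 5 to 8, with a median of 0.23. Of the 26 with a shorter transcript, 11 were, with a median of -0.052. Across genes, log2 fold change and length had a rank correlation of 0.38 for the 47 members and 0.43 for the 14521 genes with a length, which all share the same 8 libraries and are not independent replicates. After a correction for transcript length, 15 of the 32 axonal motors were positive with a median of -0.0031, and 2 of the 47 members had an unadjusted limma-trend p under 0.05 (Dynlrb2, higher, and Kif5b, lower), against 11.1% of genes.

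**Figure D4:**
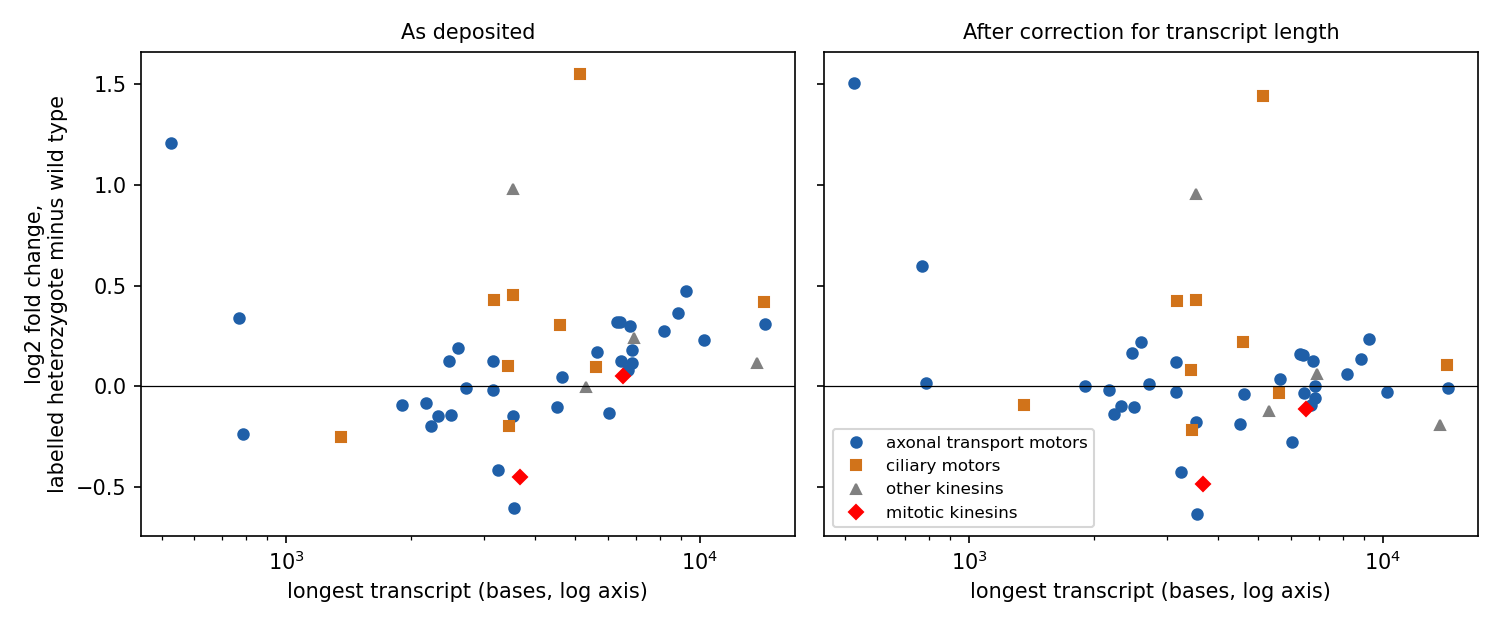
Log2 fold change (libraries labelled heterozygote minus wild type) of the 47 tested genes against the length of the longest transcript on a log axis, before (left) and after (right) a correction for transcript length; symbols give the list. On the left, 19 of the 21 members of at least 5000 bases lie above 0; on the right, 11 of the 21 do.

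Much of the spread of the transport motors lay within wild type. Wild-type library 1 was the lowest of the 8 in 16 of the 32 (50.0%) and wild-type library 3 the highest in 12 (37.5%), against 27.6% and 11.3% of all genes tested. Summed over the 32, normalized counts were 117670.0, 138022, 161744 and 143047 in wild-type libraries 1 to 4 and 161632, 150454, 137225 and 150940.0 in libraries 5 to 8. The 12 neuronal markers, such as Tubb3 and Nefl, summed to 168029, 183649, 228824 and 191376 and 214832, 205879, 183704 and 189125. Both sums were lowest in wild-type library 1 and highest in wild-type library 3. Of the 12 neuronal markers, 7 had a positive log2 fold change and none passed, with a median of 0.035. The part of neuronal content and of RNA length in the spread of the motors was not tested.

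Of 32 partners of the motors, namely dynactin subunits, dynein activators and cargo adaptors, 17 had a positive and 15 a negative log2 fold change, with a median of 0.017, and 0 passed the limma-trend adjusted p. At an unadjusted p under 0.05 there were 2 higher and 2 lower (12.5%, against 14.1% of all genes). The genotypes did not overlap in 4 of the 32, all lower (12.5%, against 3.86% of all genes), and in 0 that were higher (against 3.4%). After the length correction 11 of the 32 were positive. Fez1, an adaptor that ties kinesin-1 to cargo, had the smallest p. It had 3963, 3442, 3435 and 3444 normalized counts in wild-type libraries 1 to 4 and 2707, 2655, 2508 and 2322 in libraries 5 to 8, with no overlap. Fez1 had a log2 fold change of -0.49 (SE 0.089) with a limma-trend adjusted p of 0.0763. Nudc, a dynein cofactor, and Actr10, a dynactin subunit, had -0.26 and -0.17. On the positive side stood Trak1, which couples mitochondria to motors (0.29), and the dynein activators Hook3 (0.26) and Hook1 (0.39), with limma-trend adjusted p from 0.296 to 0.449.

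Of the ciliary motors, 7 of 9 had a positive value in the libraries labelled heterozygote (77.8%, against 52.3% of all genes), with a median log2 fold change of 0.30. None passed, and without wild-type library 4 the median was 0.080. Kif27, a kinesin of motile cilia (chr13:58287502-58359122, - strand), had 62.3, 3.90, 45.8 and 44.7 normalized counts in wild-type libraries 1 to 4 and 83.6, 68.8, 101 and 80.6 in libraries 5 to 8. The genotypes did not overlap, and wild-type library 2 was far below the other 3. Its log2 fold change was 1.55 (95% interval 0.091 to 3.01, limma-trend adjusted p 0.334), and without wild-type library 2 it was 0.70. Dync2h1, the heavy chain of the dynein that returns cargo from the tip of a cilium (chr9:6928503-7184446, - strand), had 271, 506, 444 and 382 and 439.9, 512, 517 and 638, lowest in wild-type library 1. Its log2 fold change was 0.42 (SE 0.19, limma-trend adjusted p 0.355) and 0.10 after the length correction. Kif9 and Kif6, both of motile cilia, and Kif7, a regulator of Hedgehog signalling in primary cilia, had 0.43, 0.45 and 0.30. Kif19a, which limits the length of cilia, was the most abundant of the group at 610.4 ± 33.6 per kilobase in wild type and had 0.10. Dync2li1, a light chain of the ciliary dynein, and Kif17, a kinesin-2 of sensory cilia and dendrites, were negative at -0.25 and -0.20. Kif24, which acts at the base of the cilium, stood at 0.094.

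Dynlrb2 (chr8:116504974-116515915, + strand), a roadblock light chain known from ciliated tissues, was grouped with the dynein light chains. It had 29.8, 6.30, 17.4 and 16.9 normalized counts in wild-type libraries 1 to 4 and 50.0, 23.5, 60.3 and 26.3 in libraries 5 to 8. Wild-type library 1 lay within the range of the other genotype and wild-type library 2 was the lowest. The log2 fold change was 1.20 (95% interval 0.053 to 2.36) with a limma-trend p of 0.0417 and an adjusted p of 0.341. Its transcript has 527 bases, and the length correction gave 1.51. The summed markers of motile cilia were also higher in libraries 5 to 8. All 9 measured of 10 markers had a positive log2 fold change, with a median of 1.21, and none passed. Their sums were 597, 690.5, 1249 and 779 normalized counts in wild-type libraries 1 to 4 and 1817, 1264, 1368 and 1461 in libraries 5 to 8. The genotypes did not overlap, but library 6 lay only just above wild-type library 3. Foxj1, the transcription factor that switches on motile cilia, was the highest of these markers in each library. It had 336, 523, 732 and 579 and 997, 748, 615 and 672, with overlapping ranges. No marker was at 0 in any library. The part of ciliated cells in the values of Kif27 and Dynlrb2 was not tested.

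**Figure D5:**
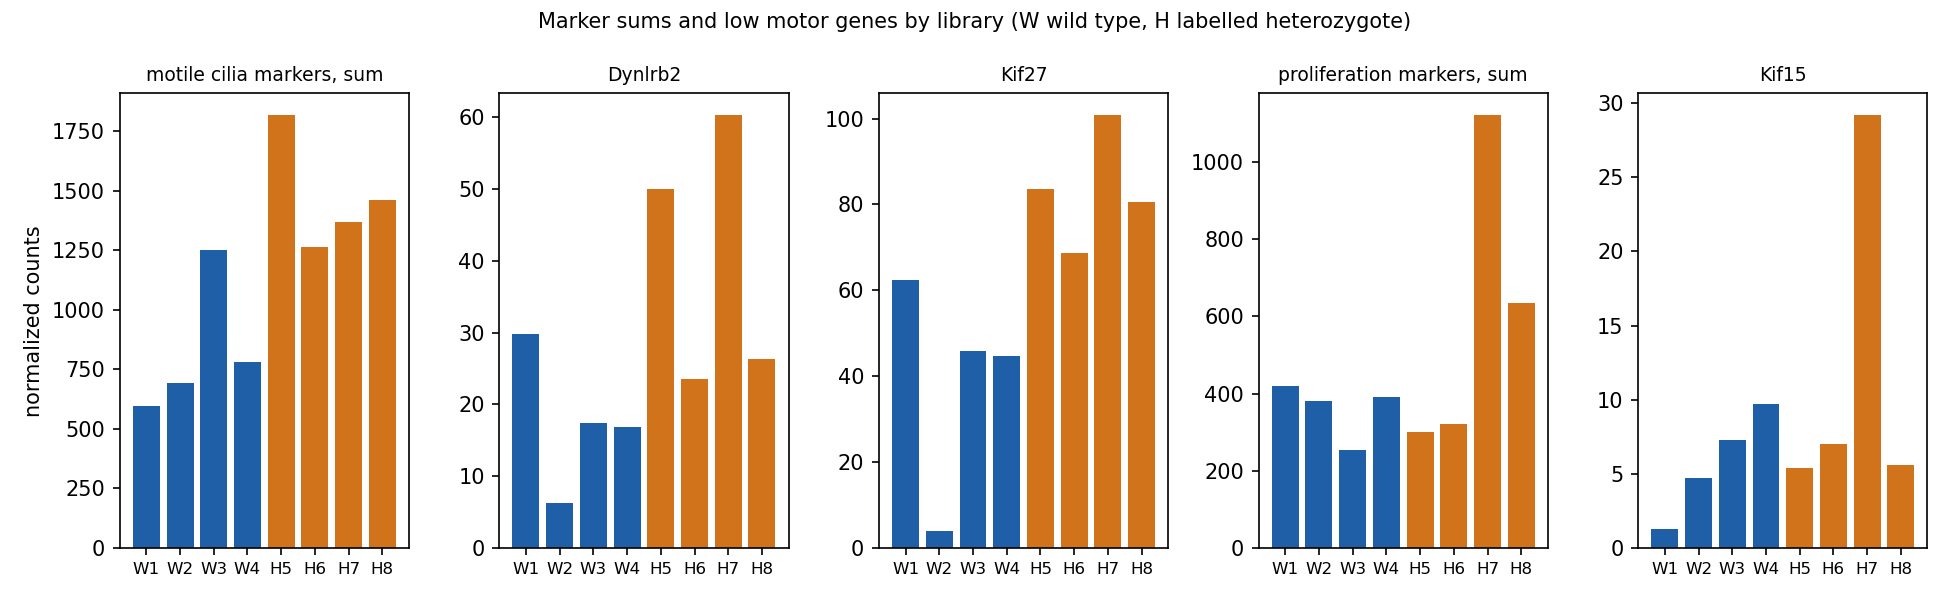
Normalized counts by library (W, wild type 1 to 4; H, libraries 5 to 8 labelled heterozygote) of the summed motile cilia markers, Dynlrb2, Kif27, the summed proliferation markers and Kif15, each on its own axis from 0. The cilia sum is higher in all 4 libraries labelled heterozygote, and library 7 stands out in the proliferation sum and in Kif15.

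Of 11 mitotic kinesins listed, 3 were in the table and the other 8 were not analysed here. Kif15, which helps to keep spindle poles apart (chr9:122951046-123018733, + strand), had 1.30, 4.70, 7.30 and 9.70 normalized counts in wild-type libraries 1 to 4 and 5.40, 7.00, 29.2 and 5.60 in libraries 5 to 8. Only library 7 reached 10, so Kif15 was not tested. 3 reads correspond to 2.37 to 3.89 normalized counts, and wild-type library 1 lay under that floor. Kif18a, which damps chromosome movement at the metaphase plate (chr2:109280738-109341747, + strand), had 31.1, 11.0, 11.0 and 33.8 and 25.0, 27.0, 23.6 and 9.40, with overlapping ranges. Kif20a, needed for cytokinesis (chr18:34624613-34633277, + strand), had 15.4, 19.3, 17.3 and 32.6 and 14.6, 4.10, 35.1 and 19.5, with library 6 the lowest and library 7 the highest. Log2 fold changes were 0.053 for Kif18a (95% interval -1.15 to 1.26) and -0.45 for Kif20a (-1.79 to 0.89), with limma-trend adjusted p of 0.972 and 0.75. The interval of Kif18a reaches past a doubling in either direction, so a difference of that size is not excluded by these 8 libraries. Its sign turned when any of libraries 2, 3, 5, 6 and 7 was left out.

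The 12 measured of 16 proliferation markers, which include Mki67 and Top2a, summed to 420.1, 381, 253 and 390.5 normalized counts in wild-type libraries 1 to 4 and 301, 322, 1122 and 634 in libraries 5 to 8. Library 7 had the highest sum, as it had the highest Kif15 and Kif20a. It also had the highest sum of neutrophil markers, 6391 normalized counts against 134 to 2550.2 in wild type. Library 8 came next at 4730 and had a Kif15 of 5.60. The sum of erythroid markers was highest in wild-type library 1, at 34445, where Kif15 was lowest at 1.30, and was 29310 in library 7. Of the proliferation markers, 11 of 12 had a positive log2 fold change, with a median of 0.73, and none passed. The part of dividing or blood cells in Kif15 was not tested. Set side by side, the 2 tested mitotic kinesins had a median log2 fold change of -0.20 and the 32 axonal transport motors of 0.12, with 0 calls in either list.

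The other kinesins completed the set. Kif2a, which shortens microtubules and trims axon branches, had 1651 ± 211 normalized counts in wild type against 1638 ± 76.6 (SD, n = 4 each). Its log2 fold change was -0.0033. Kif26a and Kif26b, kinesins without motor activity, had 0.24 and 0.12. Kif28, a little-studied kinesin, had 26.0, 28.4, 33.9 and 7.20 and 39.1, 37.5, 52.8 and 40.3 normalized counts, with no overlap. Its log2 fold change was 0.98 (95% interval -0.069 to 2.03, limma-trend adjusted p 0.377), and 0.51 without wild-type library 4. Kif13a, Kif16b, Dynlt3 and the 4 Dynlt1 copies had log2 fold changes from -0.60 for Dynlt1f to 0.34 for Dynlt1b, none past the limma-trend threshold.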

How the data were processed

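Poly(A) libraries were made with a strand-specific kit from 50 ng of RNA, per the labels' protocols, which also exclude samples of low RNA integrity (under 7). STAR, DESeq2, Partek and mm10 are named in the submitters' processing notes, without roles or settings; the annotation is not given in the sources used here. The authors deposited 1 table with a signal value per gene and sample: read counts divided by a size factor, as judged from the values, since 88.4% to 91.7% of values under 1000 were whole multiples (tolerance 0.05) of the value of 1 read. This is under the 95% needed for a count model. The authors also deposited their p-value and FDR and, for each gene, a ratio with its log2. The signed fold change in the authors' deposited table, a score, was not used. 

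A gene was tested where 4 or more libraries reached 10 normalized counts. Values entered limma-trend (R 4.3.3, limma 3.58.1) as log2(value + 1), 4 against 4 with no covariate. The threshold was a Benjamini-Hochberg adjusted p of 0.05 over all 14870 genes. The added 1 makes the fold change of low genes smaller, while 1 very low library can make it larger. Kif27 had 1.55 here, 1.63 with a pseudocount of 0.1 and a log2 ratio of 1.1 in the authors' deposited table. Kif20a had -0.45, -0.50 and -0.20 in that order, and Dynlrb2 had 1.20, 1.26 and 1.2. P-values measure the spread between mice. On simulated data for 14870 genes, 87% of genes changed 4-fold and 53% of those changed 2-fold were recovered, and 6 unchanged genes were called. The simulated noise was drawn separately for each gene, without differences shared by a whole library, so these shares may not hold for the real libraries. Changes under 2-fold were not simulated. Transcript length is that of the longest GENCODE M21 transcript, matched by symbol for 97.6% of genes and all 48 members. The length correction removed a loess trend (span 0.5) from each library. Library values are given for members with an adjusted p under 0.05, up to 6 in each direction with the smallest unadjusted p under 0.05, mitotic kinesins and 10 much-studied motors; of the partners, the 3 with the smallest p in each direction are named. Members, lists and this rule were chosen with earlier results of these data known. Alternatives were pseudocounts, filters, scalings, weights, covariates, limma-voom, length correction and libraries left out. Other steps ran in Python 3.11.15 (numpy 2.4.6, pandas 2.3.3), with figures from matplotlib 3.10.9.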

Additional observations from a re-analysis of the deposited data

Results flagged for a closer look

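In 108 groups of 4 libraries (each member, Mef2c and the list medians, by genotype), 6 held a library far from the other 3, by a gap divided by the range, and chance flags about 1 in 20 groups, or 5.4. In the libraries labelled heterozygote, library 7 stood apart in 3 genes. Dync1h1 was low there (ratio 0.867), at 12829 normalized counts against 15662 to 16098. Kif15 was high (0.933), at 29.2 against 5.40 to 7.00, and so was Klc3 (0.842), at 549 against 402.5 to 425.6. Library 5 was high in Dynlt1a (0.905), at 213 against 75.0 to 88.1, a gene with near-identical copies. In wild type, library 1 was high in Dynll1 (0.85), at 2239 against 1468 to 1584, and library 2 in Kif26a (0.972), at 242 against 198.6 to 199.8.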

How the results depend on the processing

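The median log2 fold change of the axonal transport motors, 0.12, was 0.012 without the 2 libraries low in Xist (wild-type library 1 and library 5), -0.0031 with the length correction and 0.066 with array quality weights. That of the mitotic kinesins, -0.20, was 0.053 with no filter on low values, which adds Kif15. These shifts were smaller than the spread between libraries. Of 18 named members, 10 kept their sign in all alternatives.

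With the covariate built from the residuals, 2 members passed the adjusted and 13 the unadjusted p, of 576 and 3386 genes in all. Mef2c passed there with a log2 fold change of 0.53. This covariate, their first principal component, lowers the residual spread by construction, so these counts are no independent evidence. In the authors' deposited table Mef2c passed too (log2 ratio 0.53). With the correction for transcript length, 2 members had an unadjusted p under 0.05 (of 1605 genes), and the medians were 0.10 for ciliary motors and -0.0295 for other kinesins. Signs turned there for Dync1h1 (-0.0059), Dynlrb1 (0.018), Kif18a (-0.11), Kif1b (-0.027) and Kif5c (-0.058). Without the 2 libraries low in Xist, the median of other kinesins was 0.063, and signs turned for Dynll1 (0.0023) and Kif5c (-0.12). Kif18a was also negative with quantile normalization (-0.066) and in the authors' deposited table (-0.016). Apart from the length correction, whose construction removes a trend with length, the cause was not tested.

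Leaving out each library in turn gave 0 to 1 members past the adjusted p (1, of 221 genes, without wild-type library 3) and 3 to 15 past the unadjusted p (15, of 3408 genes, without wild-type library 3, and 3, of 1177, without library 8). The axonal median ran from 0.058 without wild-type library 1 to 0.16. The median of ciliary motors ran from 0.080 without wild-type library 4 to 0.34, and that of the 2 tested mitotic kinesins from -0.44 to 0.045, across 0. Log2 fold changes ran from -0.042 to 0.23 for Kif5c, -0.19 to 0.39 for Kif18a, -0.11 to 0.062 for Kif3a and -0.85 to 0.088 for Kif20a. The mitotic median could not be had with a mean filter of 50, where no mitotic kinesin was left. No paired analysis was possible because the genotypes share no replicate numbers. Low counts limit what can be said of Kif15, Kif18a and Kif20a.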

Other observations

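The makeup of motor families was not compared by a test. Per kilobase, Kif5a made up 35.1% ± 4.14 of the kinesin-1 heavy chain transcripts in wild type against 40.6% ± 1.61 in libraries 5 to 8, labelled heterozygote (SD, n = 4 each). Kif5b made up 36.8% ± 5.66 and 31.1% ± 1.32. The ratio of Kif5a to Kif5b, 2 transcripts of similar length, was 0.734, 0.979, 1.42 and 0.98 in wild-type libraries 1 to 4 and 1.40, 1.47, 1.24 and 1.35 in libraries 5 to 8, so wild-type library 3 lay within the range of the other genotype. Kif3a made up 58.2% ± 1.81 of the kinesin-2 subunits in wild type and 53.3% ± 2.13 in the other libraries, and Klc1 77.6% ± 1.70 and 75.1% ± 2.42 of the kinesin light chains. For Kif3a the genotypes overlapped, with 55.5% in wild-type library 3 and 56.2% in library 5. Its longest transcript has 3161 bases and that of Kif3c 6791. The part of transcript length in these shares was not tested, and all shares depend on the transcript taken for the length.

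Dynll2 exceeded Dynll1 in every library, by 8.45 ± 2.13 times in wild type and 10.4 ± 1.89 times in libraries 5 to 8 (SD, n = 4 each). The 4 Dynlt1 copies differed in which library was highest, with Dynlt1a highest in library 5, Dynlt1b in library 6, Dynlt1c in wild-type library 4 and Dynlt1f in wild-type library 3. Summed, they had 432, 460.2, 428 and 658 normalized counts in wild type and 522, 516, 458 and 349.7 in libraries 5 to 8, with overlapping ranges.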
